A study of Mus musculus with 10 samples.

Results

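The 10 genes described here mark the endothelium of the liver or hold leukocytes to it, and all 10 were among the 12147 genes tested in the liver transcriptome. They were chosen by name, with earlier results of these data known. They are the adhesion molecule genes *Vcam1* and *Icam1*, the scavenger receptor genes *Stab1* and *Stab2*, *Lyve1* and *Clec4g*, and the endothelial genes *Pecam1*, *Kdr*, *Cdh5* and *Eng*. The livers came from wild-type, germ-free (GF) C57BL6 mice. In the GF+MEV group, 5 mice received extracellular vesicles of the gut microbiota (MEV, taken from control SPF mice) by mouth, as 80 μg in PBS given 2 times a week for 3 weeks, and in the GF+PBS group 5 mice received PBS alone on the same schedule. Whole liver was sequenced, 1 library per mouse, so each value is a mixture of all liver cells, and the age and sex of the germ-free mice were not given in the sources used here.

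The capillaries of the liver, the sinusoids, are lined by endothelial cells that have open pores and no full basement membrane, and that clear waste and microbial material arriving from the gut. Their scavenger receptors, among them the stabilins, take up hyaluronan, modified lipoproteins and other debris from blood. When endothelium is exposed to inflammatory cytokines such as TNF and IL-1, it places VCAM-1 and ICAM-1 on its surface, where integrins of passing leukocytes bind them. VCAM-1 binds α4β1 integrin on lymphocytes and monocytes, and ICAM-1 binds the β2 integrins. Both genes are classical targets of NF-κB. Several of the 10 genes are active in other cells too: *Vcam1* and *Icam1* in macrophages and stromal cells, *Lyve1* and *Stab1* in some macrophages, and *Pecam1* in platelets and leukocytes.

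The libraries held between 15746119 and 20523649 counts on genes. Levels are given as CPM, read counts relative to library size after scaling by edgeR's TMM factors, which lay between 0.890 (GF+MEV replicate 2) and 1.04. In whole liver, fewer cells of a type and less RNA per cell cannot be told apart. All 10 genes were present in every library, with 31 counts at the least (*Lyve1*) and 1486 at the most (*Eng*), so that the labelled tissue held endothelial RNA throughout. The defining hepatocyte gene *Alb* was at 76247 ± 7005 CPM in GF+MEV and 78079 ± 4590 CPM in GF+PBS livers (SD, n = 5 each). Of the 12147 genes, 7.64% were past an adjusted p of 0.05 between the groups by edgeR's quasi-likelihood test, 4.12% higher and 3.52% lower in GF+MEV, and 7.39% had no overlap in CPM between the groups.

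Promoter sequences are shown for 1 of the adhesion genes that cytokines control and for the sinusoidal gene that was lower in GF+MEV livers. RefSeq's promoter table (GRCm38.p6) held 6 of the 10 genes, *Icam1*, *Clec4g*, *Eng*, *Kdr*, *Stab1* and *Stab2*. The 250 bases before the annotated start are printed 5′ to 3′ on the gene's own strand, at chr9:21015690-21015939 on the plus strand for *Icam1* and at chr8:3720652-3720901 on the minus strand for *Clec4g*. Capitals in *Icam1* mark an NF-κB-type match (GGAAATTCC, beginning 153 bases before the start). Capitals in *Clec4g* mark an ETS-type match (CAGGAA, beginning 216 bases before the start) and, on either strand, GATA-type matches (AGATA) that begin 62 and 27 bases before it.
Icam1: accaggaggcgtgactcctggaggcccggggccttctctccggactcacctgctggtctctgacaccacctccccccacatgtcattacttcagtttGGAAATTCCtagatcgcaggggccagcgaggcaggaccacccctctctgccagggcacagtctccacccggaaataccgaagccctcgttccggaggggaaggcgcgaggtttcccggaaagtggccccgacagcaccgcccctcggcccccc
Clec4g: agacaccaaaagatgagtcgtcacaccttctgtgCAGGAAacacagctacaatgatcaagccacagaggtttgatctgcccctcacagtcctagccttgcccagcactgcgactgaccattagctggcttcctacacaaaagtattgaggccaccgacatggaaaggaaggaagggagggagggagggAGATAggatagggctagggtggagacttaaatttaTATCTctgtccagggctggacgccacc

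Among all 32851 promoter windows of this length, searched on both strands, 0.286% held GGAAATTCC, 26.6% AGATA and 25.7% CAGGAA. Of the 6 genes, GGAAATTCC was found before *Icam1* alone and AGATA before *Clec4g* alone, while CAGGAA was found before *Clec4g*, *Stab1* and *Stab2*. None of the 3 patterns was found before *Eng* or *Kdr*, which says only that these letters are not in the window. A match describes the sequence and does not show that a factor binds there.

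To compare levels between genes, CPM was divided by the length of each gene's exons in kilobases. In GF+PBS livers the order ran from *Eng*, a coreceptor for BMP9 and TGF-β, at 17.7 ± 1.83 CPM per kilobase (SD, n = 5), down to *Vcam1* at 0.557 ± 0.064. *Clec4g*, a C-type lectin gene of sinusoidal endothelium, stood second at 14.6 ± 2.28. The middle of the order held *Cdh5* (5.28), *Stab2* (4.55), *Stab1* (4.23), *Kdr* (3.11) and *Pecam1* (2.29), and its lower end *Icam1* (1.59) and *Lyve1* (0.922). Only between *Clec4g* and *Cdh5* did the livers of neighbouring genes not overlap in GF+PBS. In GF+MEV livers *Eng* (14.9) and *Clec4g* (10.4) were again at the top and again overlapped each other. *Stab2* (4.71) and *Cdh5* (4.43) changed places there, as did *Lyve1* (1.64) and *Icam1* (1.24), but within each of these pairs the livers overlapped in both groups. *Vcam1* was lowest in both groups, at 1.13 ± 0.167 CPM per kilobase in GF+MEV, where its livers overlapped those of *Icam1*.

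**Figure D1:**
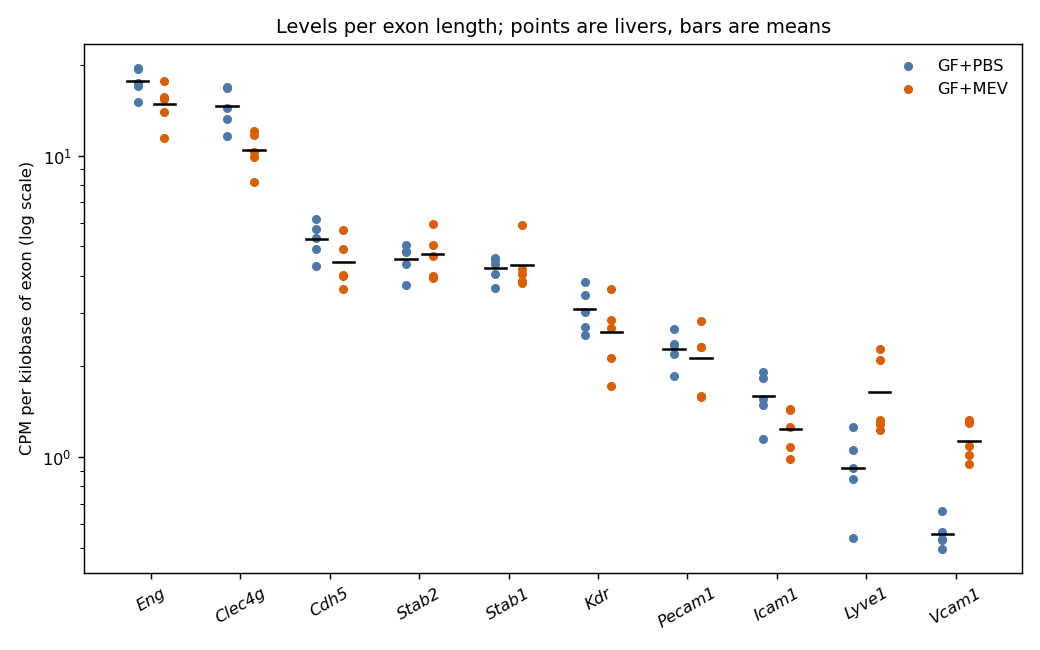
Level of each gene in CPM per kilobase of exon on a log axis, with 1 point per liver and a bar at each group's mean, ordered by the GF+PBS mean. *Eng* and *Clec4g* lie above the other genes in both groups, and the *Vcam1* points of the groups are apart, from 0.496 to 0.663 in GF+PBS and from 0.949 to 1.32 in GF+MEV.

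With edgeR, *Vcam1* and *Lyve1* were higher in GF+MEV livers, *Clec4g* was lower, and the other 7 genes did not pass the threshold. The 3 genes called, of 10, stand beside 7.64% of all genes tested. DESeq2 called the same number, 2 higher and 1 lower, beside 9.89% of all genes. *Vcam1* alone had no overlap between the groups, beside 7.39% of all genes. The median log2 fold change of the 10 genes was -0.17, against -0.0037 over all genes tested, and 6 of the 10 had a negative value, against 51.0% of all genes. Their log2 fold changes thus spanned the range from that of *Clec4g* to that of *Vcam1*, with the stabilins near 0.

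**Figure D2:**
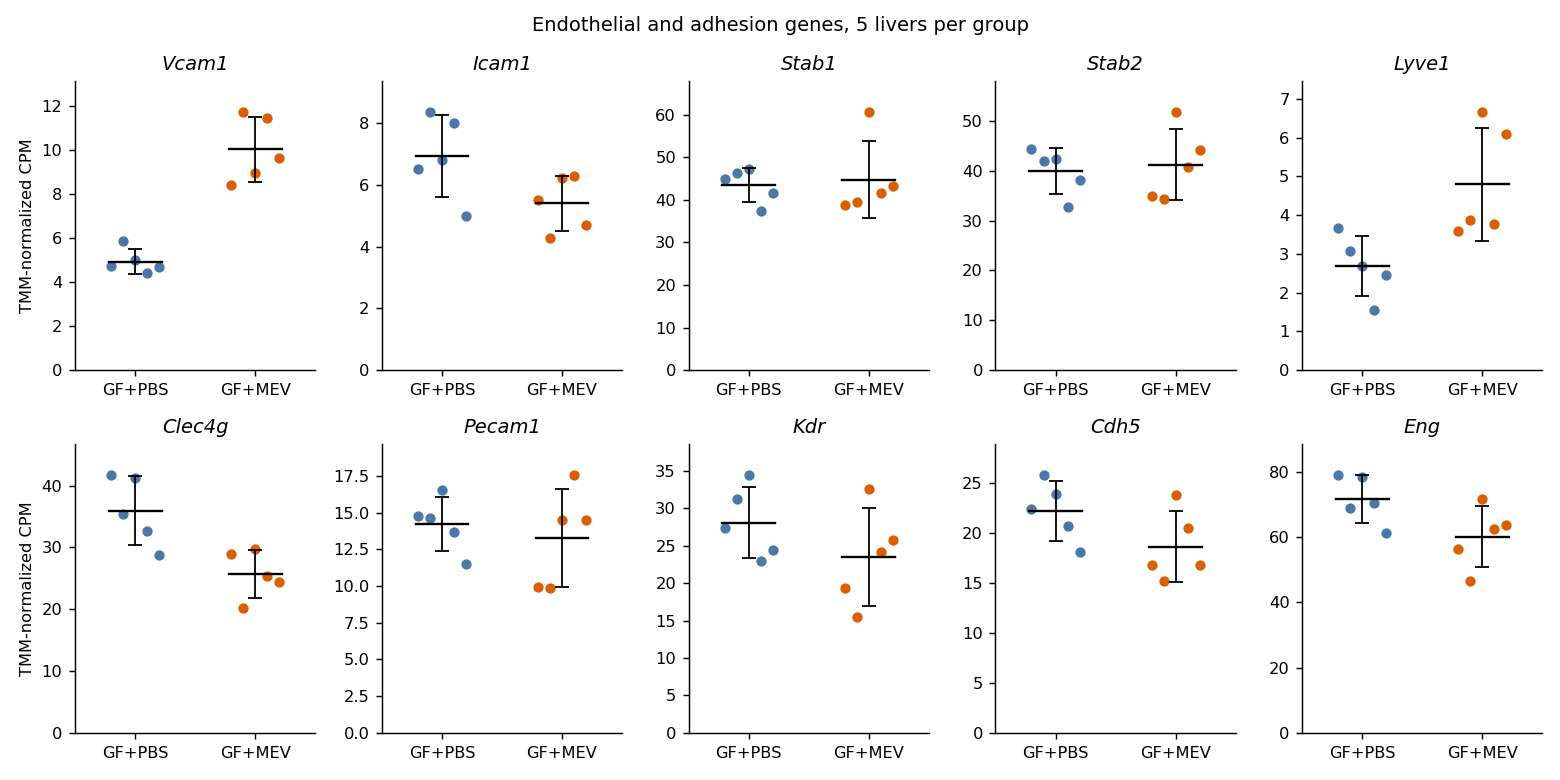
TMM-normalized CPM of the 10 genes, with 1 point per liver (replicates 1 to 5 from left to right in each group), a bar at the mean and an error bar of 1 SD (n = 5). The groups are apart for *Vcam1*, where the lowest GF+MEV liver is at 8.42 CPM and the highest GF+PBS liver at 5.88 CPM, and overlap for the other 9 genes.

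*Vcam1* (ENSMUSG00000027962) lies on the minus strand of chromosome 3 of GRCm38, from 116109949 to 116129688. Its level was 8.42, 11.7, 8.98, 11.5 and 9.64 CPM in GF+MEV replicates 1 to 5, and 4.72, 5.88, 4.999, 4.396 and 4.68 CPM in GF+PBS replicates 1 to 5. Every GF+MEV liver was therefore above every GF+PBS liver, and the spread within groups was small, with a coefficient of variation of 14.7% in GF+MEV and 11.6% in GF+PBS. The mean rose from 4.94 ± 0.571 to 10.04 ± 1.48 CPM (SD over n = 5 livers), or 1.02 as log2 fold change (SE 0.12, adjusted p = 8.8e-05 by edgeR), or 2.03-fold. An exact two-sided permutation test over the 252 labelings of 5 mice against 5 gave p = 0.00794, the smallest it can give. These values rest on 78 to 204 counts per library. The gene passed the threshold in all 18 alternative settings, with log2 fold changes from 0.97 to 1.09.

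*Icam1* (ENSMUSG00000037405), on the plus strand of chromosome 9 from 21015985 to 21028817, encodes the other cytokine-controlled adhesion molecule and carries the NF-κB-type match shown above. It measured 5.49, 4.28, 6.23, 6.29 and 4.69 CPM in GF+MEV replicates 1 to 5 and 6.50, 8.35, 6.78, 7.98 and 4.98 CPM in GF+PBS replicates 1 to 5. The groups overlapped because of GF+PBS replicate 5, and only 2 GF+MEV livers were below it. The means were 5.39 ± 0.901 and 6.92 ± 1.33 CPM (SD over n = 5 livers), or -0.35 as log2 fold change, which did not pass the threshold (SE 0.17, adjusted p = 0.196 by edgeR, exact permutation p = 0.079). Exons of the antisense gene Gm47079 cover 11.7% of the exon length of *Icam1*. Since the strand setting of the counting was not given, the effect of this overlap on the count of *Icam1* is not known. Thus the adhesion molecules differed: within each liver, log2 CPM of *Vcam1* minus that of *Icam1* was 1.35 higher in GF+MEV (standard error 0.20, exact two-sided permutation p = 0.00794, 0.00893 adjusted over the 9 differences between *Vcam1* and another gene), without overlap between the groups.

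The same difference was taken for *Vcam1* and each of the other genes. In this difference the scaling of a library cancels, apart from a small constant, the prior count, added before the logarithm. Against *Stab1*, *Stab2*, *Pecam1*, *Kdr*, *Cdh5*, *Eng* and *Clec4g* it was between 0.96 (*Stab2*) and 1.48 (*Clec4g*) on the log2 scale, with the same exact permutation p of 0.00794 for each of the 7 (0.00893 adjusted over the 9). For each of them, all 5 GF+MEV livers were above all 5 GF+PBS livers. Against *Lyve1* the difference was 0.19 (standard error 0.29, exact permutation p = 0.548). *Vcam1* was known to be higher in these livers when this comparison was chosen.

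*Lyve1* (ENSMUSG00000030787), on the minus strand of chromosome 7 from 110850607 to 110863239, encodes a hyaluronan receptor of sinusoidal and lymphatic endothelium. In GF+MEV replicates 1 to 5 it stood at 3.60, 3.86, 6.66, 3.76 and 6.10 CPM, and in GF+PBS replicates 1 to 5 at 3.66, 3.08, 2.68, 1.57 and 2.46 CPM. Replicates 3 and 5 of GF+MEV were well above the others, and the groups touched where GF+PBS replicate 1 was above GF+MEV replicate 1. The mean rose from 2.69 ± 0.778 to 4.80 ± 1.46 CPM (SD over n = 5 livers), or 0.84 as log2 fold change (SE 0.27, adjusted p = 0.040 by edgeR, exact permutation p = 0.016). It had the lowest count of the 10 genes in any library (31 to 138 counts), and its variation within groups was the largest, 30.5% in GF+MEV and 28.9% in GF+PBS. The call was lost without GF+MEV replicate 3 (adjusted p = 0.116 by edgeR) or 5 (0.095), without GF+PBS replicate 3 (0.080), 4 (0.090) or 5 (0.074), with the replicate number as a block (0.051) and with GF+PBS replicates 1 and 3 and replicates 4 and 5 summed (0.090), while the log2 fold change stayed between 0.69 and 0.98. Of the lymphatic markers listed, *Prox1*, which hepatocytes also express, was at 79.2 ± 13.4 CPM in GF+MEV and 88.3 ± 14.5 CPM in GF+PBS (adjusted p = 0.494 by edgeR), and *Pdpn* and *Ccl21a* were not analysed here.

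*Clec4g* (ENSMUSG00000074491), on the minus strand of chromosome 8 from 3707064 to 3720651, encodes the lectin LSECtin, which binds sugars on pathogens and on activated T cells. Its level was 28.9, 20.1, 29.7, 25.4 and 24.4 CPM in GF+MEV replicates 1 to 5 and 41.8, 35.4, 41.3, 32.6 and 28.7 CPM in GF+PBS replicates 1 to 5. Replicates 1 and 3 of GF+PBS were the highest of all, and only GF+PBS replicate 5 lay within the range of GF+MEV. The mean fell from 36.0 ± 5.62 to 25.7 ± 3.85 CPM (SD over n = 5 livers), or -0.48 as log2 fold change (SE 0.14, adjusted p = 0.021 by edgeR, exact permutation p = 0.024). The call was lost without GF+MEV replicate 2 (adjusted p = 0.051 by edgeR) or 5 (0.052) without GF+PBS replicate 3 (0.060) and with the same pairs of GF+PBS livers summed (0.058), with log2 fold changes from -0.55 to -0.40 over all alternatives. Exons of the antisense gene Gm16553 cover 5.93% of its exon length.

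**Figure D3:**
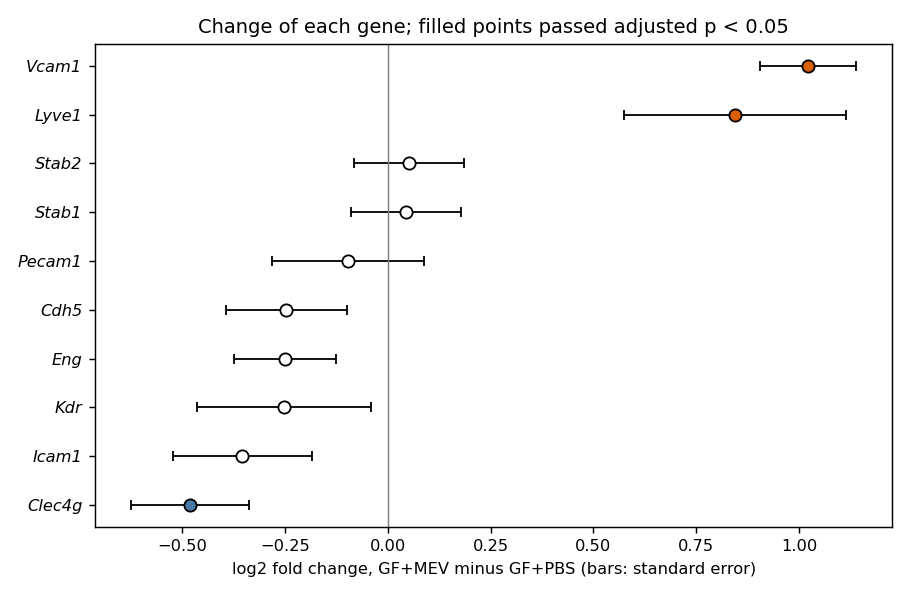
Log2 fold change of each gene, GF+MEV minus GF+PBS, with bars of 1 standard error (n = 5 livers per group). Filled points passed an edgeR adjusted p of 0.05, which were *Vcam1* (1.02) and *Lyve1* (0.84) on the higher side and *Clec4g* (-0.48) on the lower side.

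The stabilins, large scavenger receptors that remove hyaluronan and other waste from sinusoidal blood, were measured with more counts than the adhesion genes (498 to 1256 per library). *Stab1* (chromosome 14, 31139013 to 31168641, minus strand) was at 38.8, 39.4, 60.6, 41.7 and 43.2 CPM in GF+MEV replicates 1 to 5 and between 37.3 and 47.2 CPM in GF+PBS, with a log2 fold change of 0.045 (SE 0.13, adjusted p = 0.875 by edgeR). *Stab2* (chromosome 10, 86841198 to 87008025, minus strand) was at 35.0, 34.4, 51.8, 40.8 and 44.2 CPM in GF+MEV and between 32.7 and 44.3 CPM in GF+PBS, with a log2 fold change of 0.051 (SE 0.13, adjusted p = 0.853 by edgeR). In both genes GF+MEV replicate 3 was the highest of all 10 livers, and without it their log2 fold changes were -0.092 and -0.046. Without GF+PBS replicate 4, the lowest liver of its group, they were -0.0061 and -0.013. No direction can be given for either gene.

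The 4 genes of endothelium in general each had a negative value that did not pass the threshold. *Pecam1* (chromosome 11, 106654217 to 106750628, minus strand), which encodes the junction protein CD31, was at 13.3 ± 3.32 CPM in GF+MEV and 14.2 ± 1.83 CPM in GF+PBS (log2 fold change -0.096, SE 0.18, adjusted p = 0.779 by edgeR). *Kdr* (chromosome 5, 75932827 to 75978458, minus strand), the gene of the main VEGF receptor, was at 23.5 ± 6.51 and 28.1 ± 4.75 CPM (log2 fold change -0.25, SE 0.21, adjusted p = 0.422 by edgeR). *Cdh5* (chromosome 8, 104101625 to 104144511, plus strand), which encodes VE-cadherin of endothelial junctions, was at 18.6 ± 3.52 and 22.2 ± 2.96 CPM (log2 fold change -0.25, SE 0.15, adjusted p = 0.277 by edgeR). *Eng* (chromosome 2, 32646595 to 32682669, plus strand), the endoglin gene, was at 60.1 ± 9.39 and 71.6 ± 7.39 CPM (log2 fold change -0.25, SE 0.12, adjusted p = 0.173 by edgeR). All these means carry SD over n = 5 livers. The groups overlapped in each gene, with 2 or 3 GF+MEV livers below the lowest GF+PBS liver.

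Some livers were highest or lowest of their group in many of the genes. Among GF+MEV livers, replicate 3 was the highest in 7 of the 10 genes and replicate 2 the lowest in 7. Among GF+PBS livers, replicates 4 and 5 were the lowest in 5 genes each. The geometric mean of the 8 genes other than *Vcam1* and *Icam1*, a measure of endothelial RNA in a liver, was 20.01, 18.1, 29.0, 23.3 and 24.1 CPM in GF+MEV replicates 1 to 5 and 26.1, 25.4, 26.4, 20.3 and 20.8 CPM in GF+PBS replicates 1 to 5. It therefore varied within each group and overlapped between them.

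*Vcam1* did not follow that pattern: it was highest in GF+MEV replicate 2, where the other endothelial genes were mostly lowest. Divided by that geometric mean, *Vcam1* was at 0.421, 0.649, 0.310, 0.491 and 0.400 in GF+MEV replicates 1 to 5, and at 0.181, 0.232, 0.189, 0.217 and 0.225 in GF+PBS replicates 1 to 5. All GF+MEV livers remained above all GF+PBS livers on this scale, with the lowest in replicate 3. *Lyve1*, which is itself among the 8 genes, was also without overlap on this scale, between 0.161 and 0.254 in GF+MEV and between 0.077 and 0.140 in GF+PBS. *Icam1* (0.238 ± 0.034 against 0.294 ± 0.066) and *Clec4g* (1.14 ± 0.178 against 1.51 ± 0.112, SD, n = 5 livers each) overlapped between the groups.

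**Figure D4:**
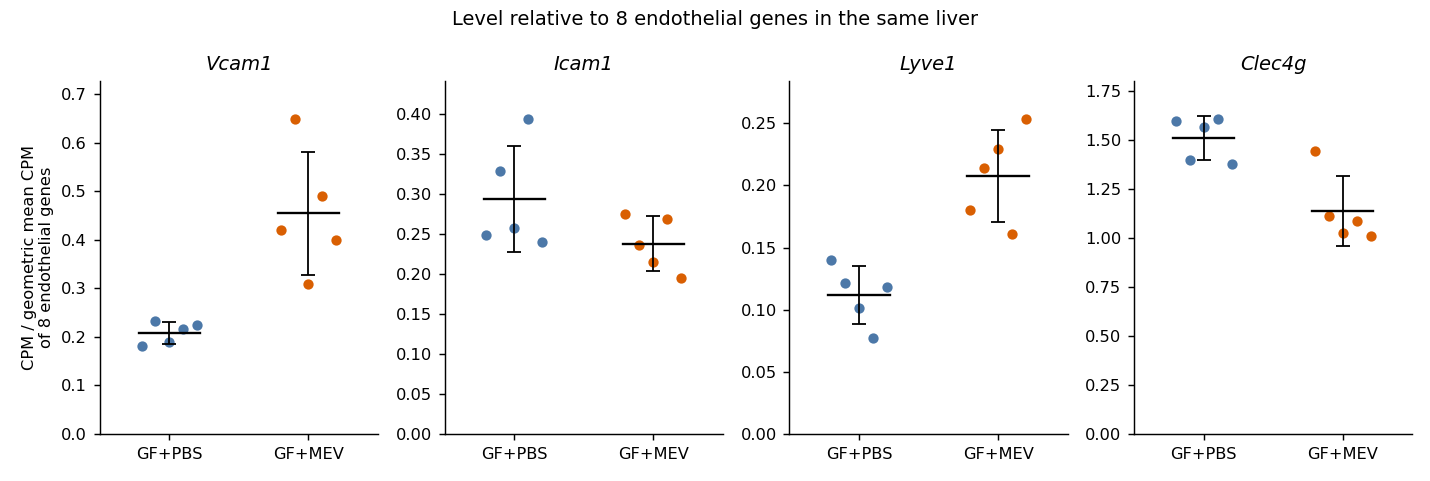
CPM of 4 genes divided by the geometric mean CPM of 8 endothelial genes (*Stab1*, *Stab2*, *Lyve1*, *Clec4g*, *Pecam1*, *Kdr*, *Cdh5* and *Eng*) in the same liver, with 1 point per liver, a bar at the mean and an error bar of 1 SD (n = 5). *Vcam1* and *Lyve1* are higher in GF+MEV without overlap, and *Icam1* and *Clec4g* overlap between the groups.

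Several genes that act upstream of the adhesion molecules differed between the groups. In a list of 22 cytokine receptors, NF-κB components and transcription factors that act on *Vcam1* and *Icam1*, 7 genes were higher, 1 was lower and 14 did not pass, with a median log2 fold change of 0.059. Of all genes tested, 4.12% were called higher and 3.52% lower. The 2 largest rises were those of *Tnfrsf1b* (TNF receptor 2) from 25.2 ± 1.54 to 86.1 ± 3.11 CPM, and of *Il1r1* (IL-1 receptor 1), from 21.8 ± 2.30 to 62.8 ± 15.7 CPM (SD, n = 5 each). *Nfkbia*, whose product IκBα holds NF-κB in the cytoplasm and which NF-κB itself induces, rose from 36.4 ± 2.88 to 68.7 ± 2.11 CPM (log2 fold change 0.92, adjusted p = 3.5e-07 by edgeR). *Tnfaip3*, which encodes the feedback inhibitor A20, rose by 0.56 on the log2 scale (adjusted p = 0.027 by edgeR). *Irf1*, an interferon-induced factor that acts on both adhesion genes, fell from 37.3 ± 3.09 to 16.2 ± 0.869 CPM (log2 fold change -1.21, adjusted p = 9.3e-08 by edgeR), while *Irf2*, its competitor, was higher (0.36, adjusted p = 0.013 by edgeR). *Klf2* (0.74, adjusted p = 4.4e-05 by edgeR) and *Klf4* (1.09, adjusted p = 0.0044 by edgeR), factors that respond to flow in endothelium, were also higher. The list joins genes that promote and genes that restrain NF-κB, so its count of calls gives no direction for *Vcam1* or *Icam1*. *Il1rap* and *Chuk*, the most abundant genes of the list that did not pass, had log2 fold changes of -0.046 and 0.066. *Tnfaip3* lost its call without GF+MEV replicate 1 or 3, without GF+PBS replicate 3 or 4, and with a replicate block. With the alike GF+PBS livers (1 and 3, 4 and 5) summed, both *Tnfaip3* (adjusted p = 0.055 by edgeR) and *Irf2* (0.054) lost their calls. Many of these genes are active in hepatocytes as well, and the cells in which they changed were not measured. The genes *Tnfrsf1b*, *Il1r1* and *Irf1* were known to differ in these livers when the list was written.

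In the other endothelial lists most log2 fold changes were negative, but the summed CPM overlapped between the groups. The sinusoidal genes summed to between 175 and 283 CPM in GF+MEV and between 212 and 292 CPM in GF+PBS. The genes of endothelium in general summed to between 130 and 194 CPM and between 161 and 193 CPM. In both lists GF+MEV replicate 3 had the highest sum of its group. Of 10 further genes of sinusoidal endothelium, 8 had a negative log2 fold change (median -0.16) and only *Gata4* passed. *Gata4*, a factor that keeps sinusoidal endothelium in its specialised state, fell from 16.9 ± 1.74 to 11.7 ± 1.28 CPM (SD, n = 5 each, log2 fold change -0.53, adjusted p = 0.0034 by edgeR), with no overlap. The values are those of whole liver, and the cells in which *Gata4* fell were not measured. *Ehd3* (0.085) and *Dnase1l3* (-0.25), the most abundant of the sinusoidal list, did not pass. *Fcgr2b*, a receptor for immune complexes, was also called lower with DESeq2, with upper-quartile scaling, and without GF+MEV replicate 3 or GF+PBS replicate 5. Of 21 genes of endothelium in general, 16 were negative (median -0.18), and 2 passed. *Sox18*, an endothelial transcription factor, fell from 7.81 ± 0.831 to 3.87 ± 0.774 CPM (log2 fold change -1.01, adjusted p = 0.00037 by edgeR), without overlap, and *Cldn5*, a tight junction gene, fell by 0.67 on the log2 scale (adjusted p = 0.014 by edgeR). The log2 fold changes of *Ptprb* (-0.016) and *Egfl7* (-0.14) did not pass. Over all tested genes, 51.0% of the log2 fold changes were negative, 7.64% were called and 3.52% were called lower.

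Genes of particular zones gave 1 call each, of 7 near the central vein and of 5 near the portal vein, beside 7.64% of all genes. Near the central vein, *Thbd*, the gene of thrombomodulin, rose from 4.20 ± 0.889 to 6.88 ± 1.54 CPM (SD, n = 5 each, log2 fold change 0.72, adjusted p = 0.018 by edgeR), while the other 6 genes did not pass, among them *Kit* (-0.013) and *Fabp4* (-0.66). The call of *Thbd* was lost without GF+MEV replicate 3 or GF+PBS replicate 4, and with the alike GF+PBS livers (1 and 3, 4 and 5) summed (adjusted p = 0.076 by edgeR). *Cdh13* of the same list was called lower by DESeq2 (-0.56, adjusted p = 0.041), with upper-quartile scaling and without GF+PBS replicate 4. Near the portal vein, the Notch ligand gene *Dll4* fell from 3.22 ± 0.330 to 1.91 ± 0.273 CPM (SD, n = 5 each, log2 fold change -0.76, adjusted p = 0.0067 by edgeR), without overlap, and *Ltbp4* (0.036), *Msr1* (-0.032) and 2 others did not pass. The medians of these lists were -0.30 and -0.21.

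The partners of the individual genes were then read list by list. Endoglin acts with BMP and TGF-β receptors on SMAD proteins. Beside 3.52% of all genes lower and 4.12% higher, 3 of 20 such ligands, receptors, SMADs and targets were lower and none higher by edgeR. These were the SMAD target genes *Id3* (log2 fold change -1.87, adjusted p = 1.1e-06 by edgeR) and *Id2* (-1.37, adjusted p = 1.1e-05 by edgeR) and the inhibitory SMAD gene *Smad6*, which fell from 10.7 ± 2.01 to 6.36 ± 1.06 CPM (log2 fold change -0.75, adjusted p = 0.0052 by edgeR, SD, n = 5 each). *Smad5* (-0.16) and *Smad4* (0.085), the most abundant that did not pass, are the signal carriers themselves. With limma-voom or a replicate block, *Id1* was also called lower and *Smad9* higher, 5 calls in all. *Smad9* was called higher by DESeq2 too (0.62, adjusted p = 0.015), and without GF+PBS replicate 2 (0.91, adjusted p = 3.9e-05 by edgeR). *Id1* was called lower with upper-quartile scaling and without GF+MEV replicate 3 as well. Hepatocytes are a further site of this pathway. None of the 9 VEGF and angiopoietin genes around *Kdr* passed by edgeR, DESeq2 or limma-voom, with 0 at an unadjusted p under 0.05, and *Nrp1* had a log2 fold change of 0.091. *Vegfa* was at 171 ± 8.53 and 167 ± 22.3 CPM (SD, n = 5 each). In the list of 14 junction partners of VE-cadherin, only *Cldn5* passed by edgeR, and *Ctnnb1* (-0.11) and *Ctnna1* (0.15) did not. *Ctnna1* was the 1 gene of the list without overlap between the groups, higher in GF+MEV, beside 7.39% of all genes. *Ctnnd1* was called higher by DESeq2 alone (0.39, adjusted p = 0.044), but 61.2% of its exon length is shared with Gm28635 on the same strand.

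Of 11 scavenger receptor and hyaluronan genes around the stabilins and *Lyve1*, 1 was higher and 2 were lower, beside 4.12% and 3.52% of all genes. *Hyal1*, a hyaluronan-degrading enzyme of lysosomes, rose from 18.0 ± 3.81 to 26.8 ± 2.85 CPM (SD, n = 5 each, log2 fold change 0.58, adjusted p = 0.013 by edgeR), without overlap, but 50.8% of its exon length is shared with *Naa80* on the same strand, so that the genes cannot be told apart there. The scavenger receptor genes *Cd36* (log2 fold change -0.40, adjusted p = 0.027 by edgeR) and *Scarf1* (-0.37, adjusted p = 0.032 by edgeR) were lower, but *Cd36* passed in only 12 of 18 alternatives and *Scarf1* in 10. *Cd36* lost its call without GF+MEV replicate 1 or 2 or GF+PBS replicate 2, 3 or 5, and *Scarf1* without GF+MEV replicate 1, 4 or 5 or GF+PBS replicate 2, 4 or 5 and with a replicate block. Both were also lost when GF+PBS replicates 1 and 3 and replicates 4 and 5 were summed (adjusted p = 0.081 and 0.073 by edgeR). *Scarb1* (0.085) and *Hyal2* (-0.022) did not pass.

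Beyond *Vcam1* and *Icam1*, 17 further genes of leukocyte adhesion molecules and of the integrins that bind them were tested. The list is not confined to leukocytes, and the cells in which its genes were active were not measured. Of these, 1 was lower, beside 3.52% of all genes, and none was higher, beside 4.12%. The median log2 fold change was -0.076. The integrin gene *Itgb7*, whose product pairs with α4 and is carried by lymphocytes, fell from 3.18 ± 0.644 to 1.86 ± 0.419 CPM (SD, n = 5 each, log2 fold change -0.77, adjusted p = 0.024 by edgeR), with 4 of 5 GF+MEV livers below all GF+PBS livers. The call was lost without GF+MEV replicate 1 or 4, or without GF+PBS replicate 3 or 4. Without GF+MEV replicate 4, the β2 integrin gene *Itgb2* (-0.47, adjusted p = 0.049 by edgeR) and its partner *Itgal* (-0.73, adjusted p = 0.012 by edgeR) were called lower. *Itgb1*, the partner of α4 in the VCAM-1 receptor, was at 151 ± 15.7 and 139 ± 6.996 CPM (log2 fold change 0.12, adjusted p = 0.359 by edgeR), and *F11r* had a log2 fold change of 0.039. *Sele*, *Madcam1*, *Itgam*, *Itgax*, *Jam3* and *Aoc3* were not analysed here.

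**Figure D5:**
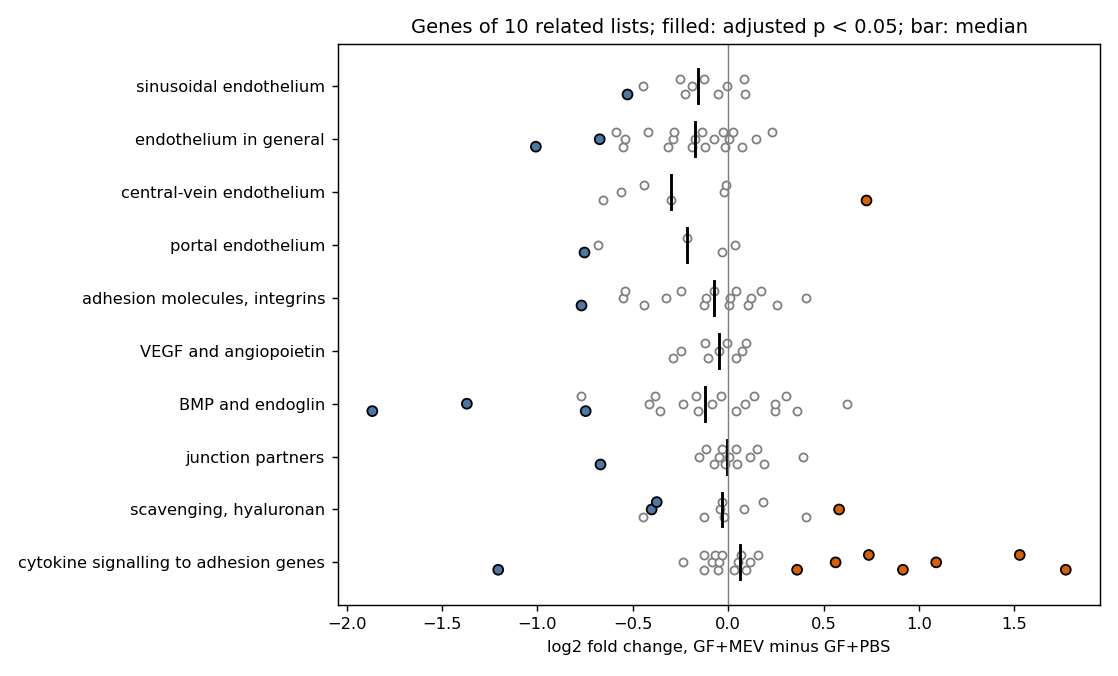
Log2 fold change (GF+MEV minus GF+PBS) of the tested genes in 10 related lists, with 1 point per gene, filled where the edgeR adjusted p was under 0.05, and a bar at each list's median. Called genes of the endothelial lists lie on the lower side except *Thbd* (0.72), and the cytokine list holds 7 genes called higher and 1, *Irf1* (-1.21), called lower.

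Markers of other liver cells were set beside these results. Their counts of calls stand beside 7.64% of all genes called, 4.12% higher and 3.52% lower. The 10 Kupffer cell genes summed to between 294 and 543 CPM in GF+MEV and between 334 and 475 CPM in GF+PBS, and none was called by edgeR, DESeq2 or limma-voom (0 at an unadjusted p under 0.05), with *Cd5l* and *Clec4f* at log2 fold changes of -0.29 and -0.15. That count rested on GF+MEV replicate 4, the liver with the highest sum: without it, 3 Kupffer cell genes were called lower by edgeR, *Cd5l* (-0.56, adjusted p = 0.033), *Marco* (-1.19, adjusted p = 0.0088) and *Vsig4* (-0.44, adjusted p = 0.046). The 10 genes of stellate cells and fibroblasts summed to between 294 and 411 CPM and between 346 and 366 CPM, with none called by the same 3 tools (1, *Lrat*, at an unadjusted p under 0.05), among them *Ecm1* (0.0069) and *Dcn* (-0.050). Of the 4 leukocyte markers analysed, the B cell genes *Cd79a* (log2 fold change -0.87, adjusted p = 0.0071 by edgeR) and *Cd79b* (-0.76, adjusted p = 0.032 by edgeR) were lower, and *Ptprc* (-0.23) and *Ms4a1* (-0.66) did not pass. The call of *Cd79b* was lost without GF+MEV replicate 2, 4 or 5 or GF+PBS replicate 3, 4 or 5, with a replicate block, and with the same pairs of GF+PBS livers (1 and 3, 4 and 5) summed (adjusted p = 0.088 by edgeR). The 3 markers of the liver's mesothelial capsule summed to between 1.59 and 10.2 CPM in GF+MEV and between 0.833 and 4.32 CPM in GF+PBS. Among them *Msln* was at 0.854, 1.59, 3.57, 2.13 and 2.89 CPM in GF+MEV replicates 1 to 5, and in GF+PBS between 0 (replicate 3) and 1.16 CPM. It did not pass (adjusted p = 0.063 by edgeR, 0.038 without GF+MEV replicate 1), and *Upk3b* had a log2 fold change of 0.99 (adjusted p = 0.394 by edgeR). The capsule sum was highest in GF+MEV replicate 3. The 2 GF+MEV livers with the highest *Msln*, *Upk3b* and *Gpm6a*, replicates 3 and 5, were also those with the highest *Lyve1*, while *Vcam1* was highest in replicates 2 and 4. Replicates 3 and 5 also had the highest geometric mean of the 8 endothelial genes in GF+MEV (29.0 and 24.1 CPM). In GF+PBS the order was the other way: *Upk3b* and *Gpm6a* were highest in replicates 4 and 5, where *Lyve1* was lowest (1.57 and 2.46 CPM). The part of capsule cells in the levels of *Vcam1* and *Lyve1* was not tested.

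The bile duct list had 3 genes analysed, of which *Krt19* was called higher (8.20 ± 5.80 against 0.560 ± 0.190 CPM, SD, n = 5 each, adjusted p = 0.00063 by edgeR) and *Spp1* (0.52) and *Sox9* (-0.98) did not pass. The red cell genes, a measure of blood in the sample, summed to between 250 and 390 CPM in GF+MEV and between 276 and 470 CPM in GF+PBS, with none of 5 called by edgeR, DESeq2 or limma-voom (0 at an unadjusted p under 0.05), among them *Hbb-bs* (-0.19) and *Hba-a1* (-0.10). In the hepatocyte list, *Tat* (log2 fold change 2.10) and *Hnf4a* (0.45) were higher and 5 genes, *Alb* (-0.034) and *Apoa1* (0.20) among them, did not pass. The calls in these 3 lists also stand beside 4.12% of all genes called higher and 3.52% called lower.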

How the data were processed

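RNA of whole liver from 10 germ-free mice, 5 per group, was sequenced by the authors, aligned to GRCm38 with STAR 2.7.3a in two-pass mode and counted with HTSeq. The authors deposited raw read counts per Ensembl gene, after removal of genes that fell under 20 counts across samples, and the strand setting of the counting is not given in the sources used here. In the 10 libraries, 44 of 12148 genes had under 100 counts in all. The table also held 5 columns that match no described sample and were not used.

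Symbols, positions and exon lengths came from GENCODE M21 (GRCm38), in which 10 identifiers had no symbol. A gene entered the test if its counts over the 10 libraries came to 20 or more, and edgeR 4.0.16 was used in R 4.3.3 (TMM normalization, quasi-likelihood fit on the group alone, Benjamini-Hochberg adjustment over 12147 genes, threshold 0.05). Standard errors (SE) are those of log2 CPM, for which the prior count was 2. For single values, all 252 labelings of the livers were enumerated in an exact permutation test (two-sided). Nothing says whether mice shared a cage or litter, so p-values measure the spread between these livers. The fits were tested on simulated counts. The smallest chi-square per gene between 2 livers of a group was 6.33, above what copies of 1 library would give.

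The genes and lists were chosen with earlier results of these data known. Named in each list were all called genes, up to 6 by size of change, and the 2 most abundant genes that were not called. *Tnfaip3*, *Irf2*, *Lrat* and some of the genes called only in an alternative were named beside them after their values were seen. Motifs were chosen with the promoter sequences in view. Alternatives were DESeq2 1.42.0, limma-voom (limma 3.58.1), RLE and upper-quartile normalization, dropping the filter, asking for 10 counts or more in each library, a replicate block, sums of alike GF+PBS livers, a prior count of 0.5, and each liver left out in turn.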

Additional observations from a re-analysis of the deposited data

Results flagged for a closer look

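Of 56 groups of 5 values examined (the 10 genes and 18 sums of list genes in each group of livers), 5 held a liver far from the other 4 by Dixon's ratio, against a critical value of 0.71. Chance gives about 1 in 20, or 2.8 here. *Stab1* was at 60.6 CPM in GF+MEV replicate 3 and between 38.8 and 43.2 CPM in the other GF+MEV livers (ratio 0.796). The sum of the scavenging and hyaluronan genes was 576 CPM in GF+MEV replicate 2 against 629 to 648 CPM (ratio 0.743). The Kupffer cell sum was 543 CPM in GF+MEV replicate 4 against 294 to 365 CPM (ratio 0.714). The lymphatic list, which held *Prox1* alone, was at 103 CPM in GF+MEV replicate 5 against 70.2 to 76.2 CPM (ratio 0.815). In GF+PBS replicate 2 the red cell sum reached 470 CPM, where the other livers had 276 to 315 CPM (ratio 0.800).
No cause of any of these was tested.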

How the results depend on the processing

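*Vcam1* kept its call in all 18 alternatives, and the 8 differences between *Vcam1* and another gene that passed in the main test also passed in all 11 of theirs. With GF+PBS replicates 1 and 3 and replicates 4 and 5 each summed into 1 sample, 561 genes were called in place of 928 and 1 of the 10 genes (*Vcam1*) in place of 3, with *Lyve1* at an adjusted p of 0.090 and *Clec4g* at 0.058. This leaves 3 GF+PBS samples. These pairs were the most alike of their group, with root mean square differences of 0.529 and 0.496 in log2 CPM (taken on the 300 genes of highest variance in GF+MEV), against 0.680 to 0.850 in the 8 other pairs. Leaving out each liver in turn gave 1 to 3 of the 10 genes called and 696 to 926 genes over all, the differences of *Vcam1* staying on the same side of zero. *Stab1* and *Stab2* changed sign without GF+MEV replicate 3 (-0.092 and -0.046) and without GF+PBS replicate 4 (-0.0061 and -0.013), with values up to 0.092 and 0.112 when other livers were left out. Upper-quartile scaling called 1040 genes, 428 higher and 612 lower, in place of 500 and 428, and moved the median log2 fold change of all genes to -0.046, with the same 3 of the 10 genes called. No clear pairing of the livers by the replicate numbers of the titles was seen. Same-numbered livers correlated between -0.188 and 0.166 in their deviations from the group means. For each GF+MEV liver, the best correlation with a GF+PBS liver of another number was between 0.055 and 0.121. Correlations this weak cannot show whether the livers were paired. With the replicate number as a block, 792 genes and 2 of the 10 were called, *Lyve1* at an adjusted p of 0.051. For *Lyve1* and *Icam1*, between 31 and 158 counts per library limit the precision.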
